A study of Homo sapiens with 6 samples.

Results

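Histone lysine methyltransferases, demethylases and the subunits that hold their complexes together were followed across 6 Affymetrix arrays of a human cell line. Members were taken by gene symbol: every gene whose symbol starts with KDM, KMT, SETD or NSD and a digit, and a fixed set that adds the Polycomb repressive complex 2 (PRC2) and COMPASS core subunits and the H3K9 methyltransferases. The rule found 54 genes of the 18132 on the array, measured by 190 of its 49395 probe sets. Of the genes that the rule names, ASH1L was not analysed here, and 1 gene on chromosome Y was left out as the rule asks. The rule itself used no expression value, though members were chosen with earlier results of these data known.

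Of the arrays, 3 are of TPC-1 cells, a human papillary thyroid carcinoma line, whose titles name an shRNA against FAM60A, all with the genotype label FAM60A1 knockdown, and 3 are of TPC-1 cells with control shRNA and the genotype label control. Every sample was grown in RPMI1640 with fetal bovine serum and carried a lentivirus expressing its shRNA, so both groups share infection. FAM60A, now named SINHCAF, encodes a component of the SIN3 histone deacetylase machinery, which removes acetyl groups from histones. The comparison is one of transcripts between the arrays of the 2 labels, and it cannot be taken as the effect of a knockdown, since SINHCAF itself was higher under the FAM60A shRNA label. The RNA extraction protocol names DLD1, a colorectal cancer line, in place of TPC-1. The labels do not say whether a group's samples came from separate cultures or from 1 infected population, so the tests rest on the scatter among the 3 arrays of a label, part or all of which can be technical.

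Histone lysine methylation is written by enzymes that carry a SET domain, with DOT1L as the exception, and each enzyme favours particular lysines. Methylation of lysine 4 of histone H3 (H3K4) marks promoters and enhancers and is laid down by COMPASS complexes, that of H3K27 by PRC2 at silenced developmental genes, that of H3K9 in heterochromatin, that of H3K36 along transcribed genes, and that of H4K20 in compacted chromatin. Demethylases reverse these marks and fall into flavin-dependent amine oxidases and enzymes with a Jumonji C (JmjC) domain, which need iron, oxygen and 2-oxoglutarate. Many of these genes are mutated or misexpressed in carcinomas.

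SINHCAF itself went against its label and was the higher one where an shRNA against it is named. Its values were 0.63, 0.57 and 0.60 in the arrays labelled FAM60A shRNA, against -0.58, -0.66 and -0.68 in the arrays labelled control shRNA, as log2 values relative to the median of the 6 arrays. That is a log2 difference of 1.24 (SE 0.038; limma, adjusted p = 1.08e-06; two-sided exact permutation p = 0.1, the smallest that 3 against 3 arrays allow). Groups are therefore called by their labels, and a rise or fall is one in the arrays labelled FAM60A shRNA relative to those labelled control shRNA. All deposited values are centred on the median of each probe set, so they give differences, and of the level only a coarse class. Signal is read from cells in bulk, so fewer cells with a transcript and less RNA per cell cannot be told apart. Of the thyroid markers measured, 3 of 14 fell and 11 did not pass (limma; 4 had an unadjusted p under 0.05), DIO1 and GLIS3 had a probe set in a class of 8 or more, and TSHR, DIO2 and DUOX2 had all of theirs in the lowest level class. Of the colorectal and intestinal markers, 9 of 13 rose and 4 did not pass, CDX2 and CDH17 had a probe set in a class of 8 or more, and VIL1, MUC2, LGALS4 and ISX had theirs in the lowest class. Of the 7 fibroblast and 4 leukocyte markers 0 passed, with 0 at an unadjusted p under 0.05 as well (limma). Among all genes, 19.8% rose and 25.0% fell in the same fit. The mean over the thyroid markers lay between -0.059 and -0.050 in the arrays labelled FAM60A shRNA and between 0.046 and 0.056 in those labelled control shRNA. The mean over the intestinal markers lay between 0.35 and 0.36 in the arrays labelled FAM60A shRNA and between -0.38 and -0.35 in those labelled control shRNA, and the part of either list in the results was not tested.

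Of the 54 members, 15 rose and 21 fell at an adjusted p under 0.05 (limma over all genes, n = 3 per label), and 18 did not pass. That is 66.7% of the members, where 44.9% of all genes passed, with 27.8% of members higher against 19.8% of all genes and 38.9% lower against 25.0%. Groups did not overlap in 41 members (75.9%), where this held for 53.2% of all genes. Sizes were small. Median absolute log2 difference was 0.19 for the members and 0.12 for all genes, and 1 member, KDM7A, both passed and differed by at least 0.5, which 9.59% of all genes did. The median signed difference was -0.056 for the members and -0.012 for all genes. Fewer member probe sets lay in the lowest level class, 18 of 190 (9.5%), than of all probe sets (26.3%). With that class left out, 37 of 54 members (68.5%) and 56.7% of all genes passed. Of the 36 members that passed, 26 kept direction and call under each of the 15 alternatives, 9 of them higher and 17 lower.

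**Figure D1:**
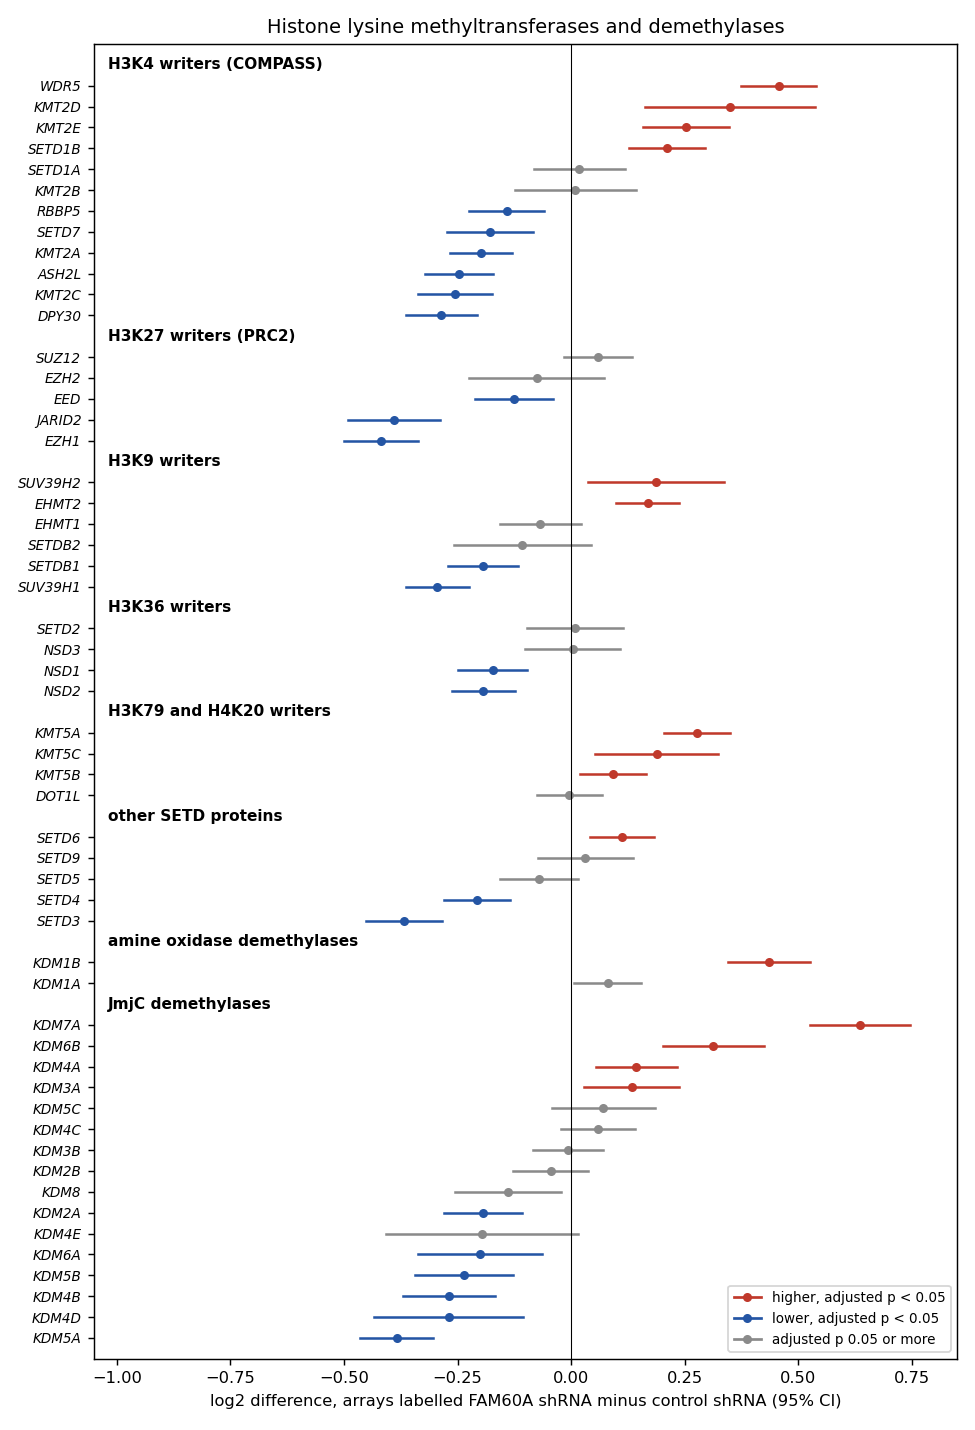
Log2 differences of the 54 genes, FAM60A shRNA minus control shRNA, with 95% confidence intervals from limma (n = 3 per label), grouped by the residue or enzyme class. KDM7A lies farthest to the right at 0.64 and EZH1 farthest to the left at -0.42. SUV39H2 and KDM3A, drawn as higher, turn lower without their probe set in the lowest level class.

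The H3K4 writers and their shared core, grouped here with KMT2E and SETD7, went in both directions. Of 12 genes, 4 rose (WDR5, KMT2D, KMT2E, SETD1B), 6 fell (DPY30, KMT2C, ASH2L, KMT2A, SETD7, RBBP5) and 2 did not pass, with a median of -0.066. That is 83.3% that passed, against 44.9% of all genes. WDR5, the scaffold that joins the catalytic subunit to the core, had log2 values of 0.20, 0.24 and 0.28 in the arrays labelled FAM60A shRNA, against -0.21, -0.24 and -0.20 in those labelled control shRNA. The labels did not overlap, and the difference was 0.46 ± 0.035 (SE), a 1.37-fold higher signal (limma, adjusted p = 4.10e-05), with its 2 probe sets at 0.45 and 0.46. The other core subunits fell. DPY30, the dimer that docks on ASH2L, stood at -0.10, -0.16 and -0.16 with FAM60A shRNA, against 0.17, 0.14 and 0.13 with control shRNA, without overlap. Its difference was -0.29 ± 0.033 (adjusted p = 3.02e-04), although 1 of its 3 probe sets lay at 0.001. ASH2L, which stimulates the methyltransferase, fell by 0.25 on the log2 scale (adjusted p = 5.42e-04), with probe sets at -0.27 and -0.22. RBBP5, its partner in that step, fell by 0.14 (adjusted p = 0.013), and its 4 probe sets ran from -0.42 to 0.27.

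Among the catalytic subunits, KMT2C and KMT2D, which methylate H3K4 at enhancers, moved apart. KMT2D stood at 0.08, 0.39 and 0.14 with FAM60A shRNA, against -0.20, -0.13 and -0.12 with control shRNA, so 1 FAM60A shRNA array lay well above the other two. The log2 difference was 0.35 ± 0.0795 (adjusted p = 0.009). Of its 2 probe sets, 1 passed at 0.34. The other, at 0.36 in the lowest level class, did not pass (limma, adjusted p = 0.052) and stood at 0.55 in FAM60A shRNA replicate 2. KMT2C stood at -0.10, -0.12 and -0.14 with FAM60A shRNA, against 0.15, 0.09 and 0.17 with control shRNA, a difference of -0.26 ± 0.034 (adjusted p = 6.56e-04). All 3 arrays of each label kept to their side in both genes. KMT2A, the MLL protein of leukaemia translocations, fell by 0.20 on the log2 scale (adjusted p = 0.001), and its 8 probe sets ran from -0.51 to -0.002. Its relative KMT2B had a difference of 0.009 with a 95% confidence interval of -0.12 to 0.14 and did not pass (adjusted p = 0.92). SETD1B, one of the pair of enzymes that make most promoter H3K4 trimethylation, rose by 0.21 (adjusted p = 0.0021), and SETD1A stood at 0.018 with an interval of -0.081 to 0.12 (adjusted p = 0.77). KMT2E, grouped here by its gene name and not as a catalytic subunit, binds methylated H3K4 through its PHD finger and rose by 0.25 (adjusted p = 0.0016). SETD7, which monomethylates H3K4 and other proteins, fell by 0.18 (adjusted p = 0.0086). In both KMT2E and SETD7 some probe sets passed in opposite directions.

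Of the 5 PRC2 members, EZH1, JARID2 and EED fell and 2 did not pass, with a median of -0.13, where 44.9% of all genes passed and 25.0% were lower. The EED call was lost in 8 of 15 alternatives. EZH1, the catalytic subunit typical of resting cells, gave the largest fall of all members. It stood at -0.23, -0.23 and -0.21 with FAM60A shRNA, against 0.17, 0.18 and 0.25 with control shRNA, and the groups lay far apart relative to their spread. The difference was -0.42 ± 0.034, a 1.34-fold lower signal (limma, adjusted p = 5.59e-05). Of its 3 probe sets, 2 lay in the lowest level class, and the remaining one had -0.94. JARID2, an accessory subunit that helps PRC2 find its targets and has lost demethylase activity, stood at -0.24, -0.14 and -0.20 with FAM60A shRNA, against 0.18, 0.15 and 0.26 with control shRNA. It fell by 0.39 (SE 0.043, adjusted p = 2.45e-04), and 4 of its 5 probe sets passed, all lower. EED, the subunit that reads H3K27 trimethylation, had 2 of 4 probe sets that passed, both lower, and 1 in the class of 8 to 16 at -0.0. The gene fell by 0.13 (adjusted p = 0.026). It lost its call without replicate 2 or replicate 3 of either label, with differences between -0.13 and -0.11, after another quantile normalization (-0.11) or cyclic loess (-0.10), and with the probe set of largest variance (-0.19, adjusted p = 0.095). EZH2, the catalytic subunit of dividing cells, had -0.076 with a 95% confidence interval of -0.23 to 0.072, and SUZ12, which EZH2 needs for activity, had 0.059 with -0.016 to 0.13, and neither passed (adjusted p = 0.39 and 0.19). The 3 probe sets of EZH2 did not move together, since 1 in a class of 8 or more passed at 0.16 and the lowest lay at -0.23.

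RefSeq promoter windows of GRCh38.p14, 250 bases before to 50 after the start, are shown for EZH1 and EZH2, the related catalytic subunits of which 1 fell and 1 did not pass. Capitals mark the motifs searched on both strands, which were TTTGGCGC or TTTCCCGC for E2F, ACGTG for the hypoxia response, TTTGAA for the CHR element of cell cycle genes, and the palindromic motif of NRF1. The EZH1 window (chr17:42744991-42745290, minus strand) held 0 of them and the EZH2 window (chr7:148884242-148884541, minus strand) held 1, an E2F match.
EZH1: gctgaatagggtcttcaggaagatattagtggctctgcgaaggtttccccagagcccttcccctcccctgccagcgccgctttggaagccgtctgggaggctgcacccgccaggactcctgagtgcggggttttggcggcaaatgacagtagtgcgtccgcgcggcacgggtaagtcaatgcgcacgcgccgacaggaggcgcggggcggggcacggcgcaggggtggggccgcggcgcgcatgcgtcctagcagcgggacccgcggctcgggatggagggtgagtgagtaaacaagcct
EZH2: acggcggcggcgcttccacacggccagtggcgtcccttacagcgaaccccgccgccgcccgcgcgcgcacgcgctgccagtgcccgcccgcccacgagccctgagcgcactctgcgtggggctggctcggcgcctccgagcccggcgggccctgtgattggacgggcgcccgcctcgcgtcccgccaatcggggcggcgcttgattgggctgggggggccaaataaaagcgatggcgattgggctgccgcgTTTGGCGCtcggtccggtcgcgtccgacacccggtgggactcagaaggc
Of the 54 members, 48 matched a window, the first one listed being used where there were several, and ASH2L, DOT1L, DPY30, KDM4E, NSD3 and SETD1B did not. The E2F letters stood in 4 of 48 member windows (8.3%), among 3.1% of the windows of 14425 genes on the array, and the hypoxia letters in 13 (27.1%), among 23.9%. The CHR letters stood in 6 (12.5%), among 12.1%, and those for NRF1 in 1 (2.1%), among 1.8%. Between members that rose and fell, the E2F letters stood in 1 of 14 and 1 of 19, and the hypoxia letters in 4 of 14 and 6 of 19. No match says only that these letters are not in the window.

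H3K9 writers were divided, with 2 of 6 higher and 2 lower (66.7% passed, against 44.9% of all genes). SUV39H1, which trimethylates H3K9 in pericentromeric heterochromatin, stood at -0.15, -0.14 and -0.16 with FAM60A shRNA, against 0.14, 0.13 and 0.17 with control shRNA. These are tight and well separated groups, and its 5 probe sets lay between -0.35 and -0.28 and all passed. The gene fell by 0.29 on the log2 scale (SE 0.029; limma, adjusted p = 1.46e-04). EHMT2, also called G9a, which dimethylates H3K9 in euchromatin, rose by 0.17 on 1 probe set (adjusted p = 0.0025), whereas its partner EHMT1 had -0.068 with an interval of -0.16 to 0.021 (adjusted p = 0.20). SETDB1, which silences retroelements, fell by 0.19 (adjusted p = 0.0022), and SETDB2 did not pass at -0.11 (adjusted p = 0.23). Of the 2 probe sets of SETDB1, 1 passed at -0.33 and the other lay at -0.058. SUV39H2, the relative of SUV39H1, had a gene difference of 0.19 that passed (adjusted p = 0.047), but its 2 probe sets disagreed. The one in a class of 8 or more had -0.34 and the one in the lowest level class 0.72, so that without the lowest class the gene was lower by 0.34 (adjusted p = 0.0011). Its rise also lost the call without any 1 of the arrays except replicate 2 labelled control shRNA, with differences between 0.12 and 0.22, and with the median of the probe sets, without x_at and s_at probe sets or with robust eBayes, at 0.19 each.

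Of the 4 H3K36 writers, 2 fell and 2 did not pass, where 44.9% of all genes passed and 25.0% were lower. NSD1 and NSD2, which dimethylate H3K36, fell by 0.17 (adjusted p = 0.0032) and by 0.19 (adjusted p = 0.0012) on the log2 scale, without overlap between the labels. NSD2 stood at -0.084, -0.082 and -0.11 with FAM60A shRNA, against 0.11, 0.10 and 0.086 with control shRNA. Of its 12 probe sets, 6 passed as lower and 2 as higher. In NSD1, 3 of 8 probe sets passed, all lower, and the 8 ran from -0.36 to 0.078. SETD2, the enzyme of H3K36 trimethylation, had 0.008 with an interval of -0.097 to 0.11, and NSD3 had 0.003 with -0.10 to 0.11 (adjusted p = 0.91 and 0.97). In NSD3, 1 of 4 probe sets passed, at 0.34.

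All 3 H4K20 methyltransferases were higher, where 19.8% of all genes were higher. KMT5A, the enzyme of H4K20 monomethylation, stood at 0.15, 0.14 and 0.10 with FAM60A shRNA, against -0.14, -0.16 and -0.13 with control shRNA. The difference was 0.28 ± 0.031, 1.21-fold (limma, adjusted p = 2.43e-04), and 4 of its 5 probe sets passed, all higher. KMT5C and KMT5B, which add the further methyl groups, rose by 0.19 (adjusted p = 0.031) and 0.092 (adjusted p = 0.045), and both calls were fragile. KMT5B lost its call without any 1 of the 6 arrays, with differences between 0.082 and 0.11, and KMT5C lost its call without any 1 of them except replicate 1 labelled FAM60A shRNA, with 0.13 to 0.20. KMT5B also did not pass without the lowest level class (0.061, adjusted p = 0.13) or without x_at and s_at probe sets (0.092, adjusted p = 0.067), and KMT5C with the probe set of largest variance (0.23, adjusted p = 0.12). DOT1L, the H3K79 methyltransferase, had -0.004 with an interval of -0.075 to 0.068 (adjusted p = 0.94). Its 2 probe sets went opposite ways. The one in the class of 8 to 16 passed at 0.125, and the other, at -0.132, did not pass (limma, adjusted p = 0.065).

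Among SETD proteins whose known substrates lie mainly outside histones or whose role is less settled, 1 of 5 rose and 2 fell. That is 60.0% that passed, against 44.9% of all genes. SETD3, a histidine methyltransferase of actin, stood at -0.25, -0.18 and -0.16 with FAM60A shRNA, against 0.19, 0.14 and 0.19 with control shRNA. It fell by 0.37 (SE 0.036; limma, adjusted p = 1.27e-04), with 5 of 6 probe sets lower. SETD4 fell by 0.21 (adjusted p = 0.0011) on probe sets at -0.52 and 0.11, of which the first passed. SETD6, which methylates the NF-kB subunit RELA, rose by 0.11 (adjusted p = 0.019) and lost its call without replicate 1 or 3 labelled FAM60A shRNA or replicate 2 or 3 labelled control shRNA, with 0.10 to 0.11. With the median of its probe sets SETD6 had 0.071 and did not pass (adjusted p = 0.15). SETD5 (-0.070) and SETD9 (0.030) did not pass.

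KDM7A, a JmjC demethylase of H3K9 and H3K27, had the largest difference of all members. Its values were 0.34, 0.36 and 0.26 with FAM60A shRNA, against -0.39, -0.29 and -0.27 with control shRNA, and the nearest arrays of the 2 labels were more than 0.5 apart. The signal was 1.55-fold higher with a 95% confidence interval of 1.44 to 1.68, a log2 difference of 0.64 ± 0.046 (limma, adjusted p = 3.31e-05). Its 2 probe sets both passed but differed in size, 0.99 in a class of 8 or more and 0.28. KDM1B, the amine oxidase LSD2 that removes H3K4 methylation within gene bodies, stood at 0.25, 0.16 and 0.18 with FAM60A shRNA, against -0.27, -0.20 and -0.25 with control shRNA. It rose by 0.43 ± 0.038, 1.35-fold (adjusted p = 8.01e-05), which came from 1 probe set at 0.83, the other lying at 0.04. KDM1A, the LSD1 of the CoREST complex, had 0.081 and did not pass (adjusted p = 0.073), though it passed after each of the 3 other scalings at 0.094 to 0.11.

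The promoter windows of these 2 demethylase genes with the largest rises are given with the same motifs in capitals. The KDM7A window (chr7:140176934-140177233, minus strand) held 1 match to the hypoxia letters and the KDM1B window (chr6:18155172-18155471, plus strand) 2 to the E2F letters, where the shares of all windows were 23.9% and 3.1%.
KDM7A: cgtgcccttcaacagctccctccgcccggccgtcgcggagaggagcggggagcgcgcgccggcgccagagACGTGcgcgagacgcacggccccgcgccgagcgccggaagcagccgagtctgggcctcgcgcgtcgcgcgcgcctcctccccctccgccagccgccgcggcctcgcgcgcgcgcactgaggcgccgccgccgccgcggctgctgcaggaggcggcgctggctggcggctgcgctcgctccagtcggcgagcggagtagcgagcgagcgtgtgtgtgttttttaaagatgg
KDM1B: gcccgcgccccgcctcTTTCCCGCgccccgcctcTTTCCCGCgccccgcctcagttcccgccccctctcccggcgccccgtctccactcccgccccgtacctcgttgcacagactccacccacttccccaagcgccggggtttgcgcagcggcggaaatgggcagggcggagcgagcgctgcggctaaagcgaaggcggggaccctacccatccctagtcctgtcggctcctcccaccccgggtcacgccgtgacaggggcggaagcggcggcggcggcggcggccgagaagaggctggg

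Of the 16 JmjC demethylases, 4 rose, 6 fell and 6 did not pass, with a median of -0.092 (62.5% passed, against 44.9% of all genes). The H3K27 demethylases moved apart. KDM6B, an inducible enzyme known from inflammatory gene activation, stood at 0.14, 0.12 and 0.16 with FAM60A shRNA, against -0.11, -0.14 and -0.27 with control shRNA, and rose by 0.31 (SE 0.047; limma, adjusted p = 0.0011), its probe sets at 0.30 and 0.32. KDM6A, also called UTX, fell by 0.20 (adjusted p = 0.025), its probe sets at -0.23 and -0.18, and lost its call without replicate 2 or 3 labelled FAM60A shRNA or replicate 1 or 3 labelled control shRNA, with -0.20 to -0.16.

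The demethylases of H3K4 trimethylation fell or did not pass. KDM5A, first found as a binding protein of the retinoblastoma protein, stood at -0.24, -0.20 and -0.18 with FAM60A shRNA, against 0.20, 0.14 and 0.19 with control shRNA. It fell by 0.38 (SE 0.034; adjusted p = 7.83e-05), a 1.31-fold lower signal, and all 7 probe sets lay below 0, from -0.73 to -0.14. KDM5B fell by 0.24 (adjusted p = 0.0043), but of its 4 probe sets only 1 passed, at -0.37 in the lowest level class. The other 3 lay between -0.24 and -0.10. KDM5C did not pass at 0.071 (adjusted p = 0.29), with 2 of 7 probe sets higher and up to 0.42.

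Of the KDM4 enzymes, which demethylate H3K9 and, for KDM4A to KDM4C, also H3K36, KDM4A rose and KDM4B and KDM4D fell. KDM4B stood at -0.22, -0.099 and -0.13 with FAM60A shRNA, against 0.074, 0.15 and 0.14 with control shRNA, a difference of -0.27 ± 0.043 (limma, adjusted p = 0.0016). It rested mostly on 1 of 4 probe sets, at -0.83, and with the median of the probe sets it did not pass (-0.17). KDM4D fell by 0.27 (adjusted p = 0.016) and lost its call without control shRNA replicate 3 (-0.24). With the probe set of largest variance, or without x_at and s_at probe sets, KDM4D had -0.19 and did not pass (adjusted p = 0.34 in both). KDM4A rose by 0.14 (adjusted p = 0.017) and lost its call without FAM60A shRNA replicate 2 or control shRNA replicate 1 or 3, with 0.12 to 0.13, and with the probe set of largest variance (0.15, adjusted p = 0.1). KDM4C (0.059) and KDM4E (-0.20) did not pass. KDM2A, an H3K36 demethylase, fell by 0.19 (adjusted p = 0.0034) on probe sets at -0.21 and -0.17, and KDM2B, which brings a PRC1 complex to CpG islands, did not pass at -0.045 with an interval of -0.13 to 0.038. KDM3A, an H3K9 demethylase induced in hypoxia, had a gene difference of 0.13 that passed (adjusted p = 0.044), but 1 probe set in the lowest level class carried it at 0.69. Without that class KDM3A was lower by 0.14 (adjusted p = 0.0041), and the rise lost its call without replicate 1 or 2 of either label, with 0.10 to 0.14, and without x_at and s_at probe sets (0.13, adjusted p = 0.053). With the median of its probe sets KDM3A had -0.007. KDM3B (-0.006) and KDM8 (-0.14, adjusted p = 0.056) did not pass.

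**Figure D2:**
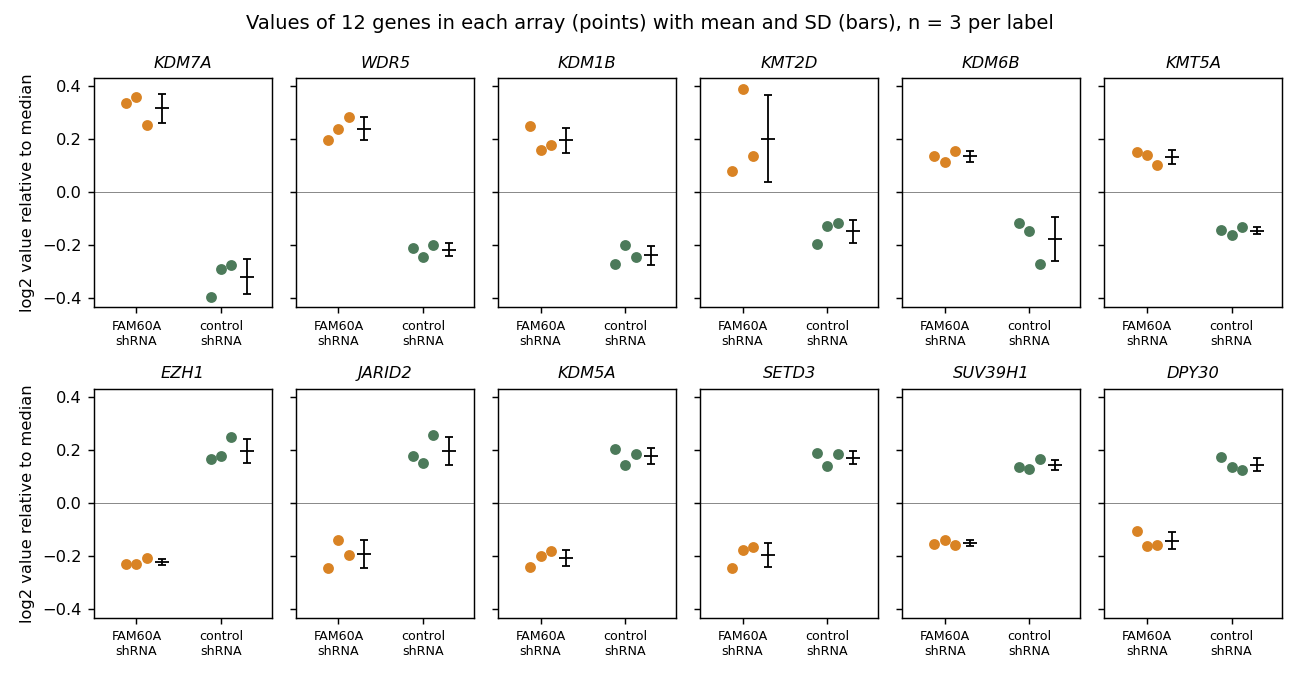
Log2 values relative to the median of the 6 arrays for 12 genes, 6 higher in the upper row and 6 lower in the lower row. Points are arrays, FAM60A shRNA left and control shRNA right, and bars give the mean and SD (n = 3 per label). No gene shown has overlapping groups, and KMT2D has 1 high FAM60A shRNA array at 0.39.

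To see whether related enzymes differed from each other, the value of one gene was subtracted from that of its relative in each array, for 14 pairs chosen by kinship with the results known. Such a difference removes any shift that an array gives to both genes. The labels did not overlap in 12 of 14 pairs. For single genes this held in 53.2% of all genes, and the share among other pairs of genes was not computed. In each of the 12 the two-sided exact permutation p was 0.1, the smallest that 3 against 3 arrays allow. After Benjamini-Hochberg adjustment over the pairs it was 0.12, so that no pair could pass. KMT2C minus KMT2D gave -0.18, -0.51 and -0.28 with FAM60A shRNA, against 0.35, 0.22 and 0.28 with control shRNA, the widest gap between labels at -0.60. The -0.51 includes the 0.55 of the KMT2D probe set in the lowest level class. KDM6A minus KDM6B gave -0.15, -0.24 and -0.33 with FAM60A shRNA, against 0.29, 0.16 and 0.36 with control shRNA, a gap of -0.51. EZH1 minus EZH2 gave -0.19, -0.31 and -0.092 with FAM60A shRNA, against 0.17, 0.17 and 0.099 with control shRNA, a gap of -0.34. In these pairs every FAM60A shRNA array lay below every control shRNA array. KDM1A minus KDM1B had a gap of -0.35 and KDM4A minus KDM4B one of 0.41. SUV39H1 minus SUV39H2 had a gap of -0.48, which the SUV39H2 probe set in the lowest level class carries, since the other one, at -0.34, lies beside the -0.29 of SUV39H1. The pairs that overlapped were SETDB1 and SETDB2 (exact permutation p = 0.3, adjusted p = 0.32) and KMT5B and KMT5C (exact permutation p = 0.4, adjusted p = 0.4).

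**Figure D3:**
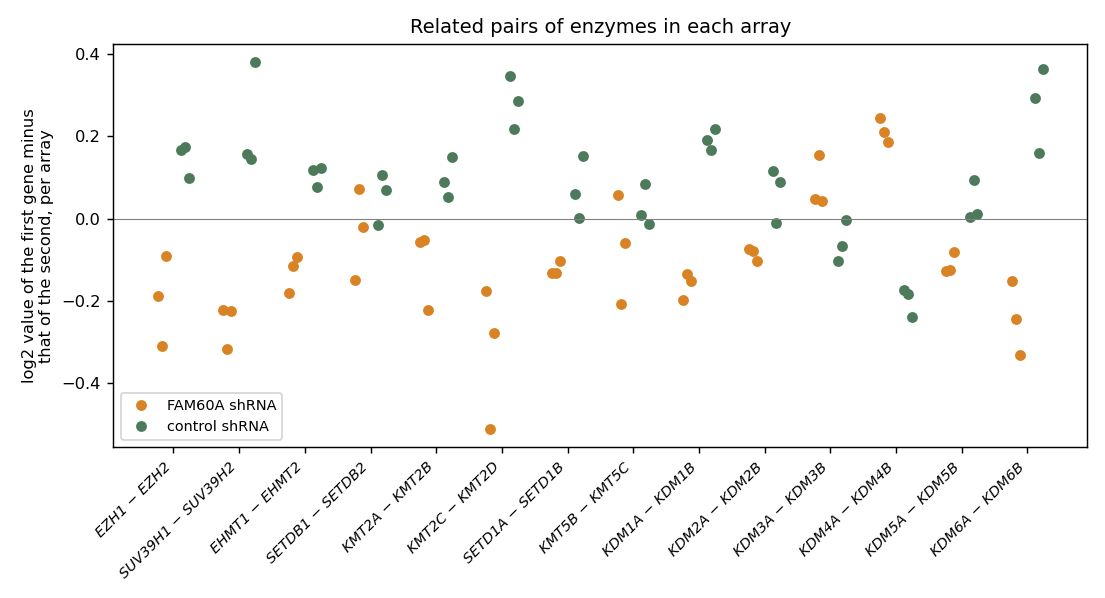
Log2 value of the first gene minus that of the second in each array, for 14 pairs of related enzymes, with FAM60A shRNA left and control shRNA right in each pair (points, n = 3 per label). The labels overlap in SETDB1 and SETDB2 and in KMT5B and KMT5C, and lie apart in the other 12, where they lie apart in 53.2% of all single genes.

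At the level of single probe sets, 37 of 190 were higher and 65 lower, in all 53.7%, where 40.8% of all probe sets passed, 18.1% higher and 22.7% lower (limma over 49293 probe sets). Members with several probe sets had some that passed in opposite directions in 6 of 48 genes (12.5%), against 3.71% of 11734 such genes on the array. Members had up to 12 probe sets, and a gene with more has more chances to show both. These 6 were KMT2E, NSD2, RBBP5, SETD7, KDM3A and SUV39H2. KMT2E had 6 of 9 probe sets higher, at 0.25 to 0.54, and 2 lower, at -0.27 and -0.21, all in the level class of 4 to 8. NSD2 had 6 of 12 lower, down to -0.85, and 2 higher, at 0.21 and 0.25. RBBP5 had 2 lower and 1 higher, and SETD7 had -0.58 in the class of 4 to 8 and 0.22 in that of 8 to 16. For these 4 genes the lowest level class holds none of the probe sets that disagree. A gene's mean, and its SE over arrays, does not show this spread between probe sets, and whether it follows transcript variants was not tested.

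**Figure D4:**
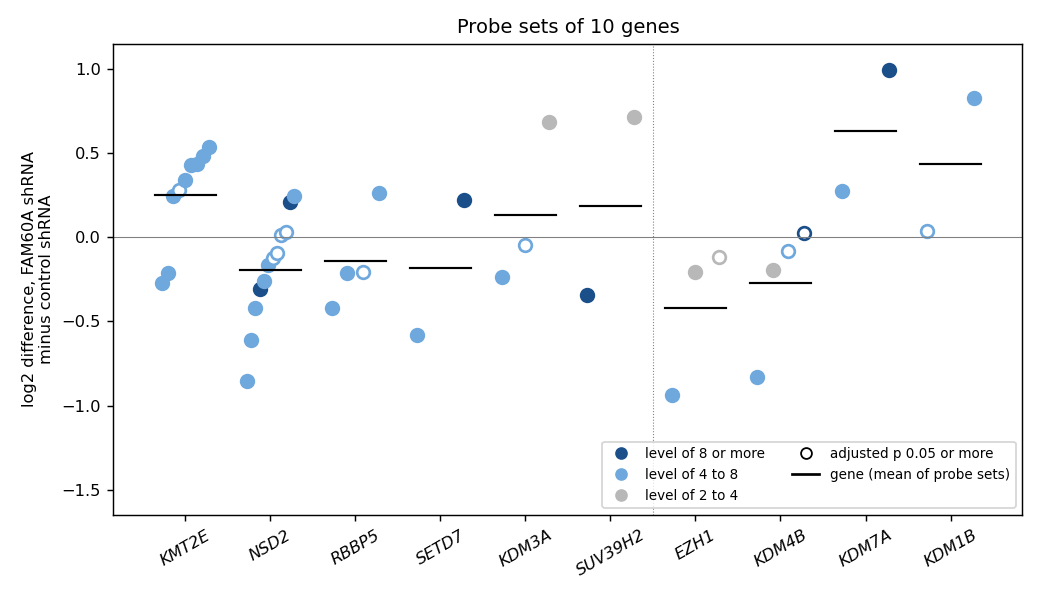
Log2 differences of the probe sets (points) of 10 genes, FAM60A shRNA minus control shRNA, with the gene mean as a black line. Filled points passed at an adjusted p under 0.05 and colours give the level class. Left of the dotted line are the 6 genes with probe sets that passed in opposite directions, where the highest points of KDM3A (0.69) and SUV39H2 (0.72) lie in the class of 2 to 4.

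Of 31 partner subunits of these enzymes, 8 rose and 9 fell, 54.8%, where 44.9% of all genes passed. Their median log2 difference was -0.004 and their median absolute one 0.13, against 0.12 for all genes, and 5 of the 31 passed with at least 0.5. MLLT3, also called AF9, which binds acylated histones for the DOT1L complex and the super elongation complex, stood at 1.09, 0.95 and 0.89 with FAM60A shRNA, against -0.87, -0.88 and -1.01 with control shRNA. It was 3.71-fold higher, a log2 difference of 1.89 ± 0.063 (limma, adjusted p = 1.39e-06), with probe sets at 1.83 and 1.95. NCOA6 and PAXIP1, both subunits of the KMT2C and KMT2D complexes, were 2.80-fold and 2.56-fold higher, at 1.48 ± 0.054 (adjusted p = 1.92e-06) and 1.36 ± 0.041 (adjusted p = 1.07e-06), each on 1 probe set. PAXIP1 stood at 0.69, 0.63 and 0.68 with FAM60A shRNA, against -0.68, -0.63 and -0.76 with control shRNA, without overlap. TRIM28, the corepressor that recruits SETDB1, rose by 0.42 (adjusted p = 3.36e-05).

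Partners of PRC2 with a Tudor domain fell. MTF2, which brings PRC2 to unmethylated CpG islands, stood at -0.49, -0.59 and -0.55 with FAM60A shRNA, against 0.53, 0.53 and 0.53 with control shRNA. It was 2.10-fold lower, -1.07 ± 0.036 (limma, adjusted p = 1.47e-06), with all 9 probe sets between -1.44 and -0.93. Its relatives PHF1 (-0.58 ± 0.029, adjusted p = 6.23e-06) and PHF19 (-0.28 ± 0.031, adjusted p = 2.74e-04) fell as well, and AEBP2, a zinc finger partner that joins PRC2 with JARID2, rose by 0.13 (adjusted p = 0.026).

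The other lists of related genes were counted in the same fit, in which 44.9% of all genes passed, 19.8% higher and 25.0% lower. Of 24 further SET-domain, PRDM and JmjC proteins, 3 rose and 8 fell (45.8%, median -0.003), a share close to that of all genes. The asparagine hydroxylase HIF1AN (-0.58), the ribosomal oxygenase RIOX1 (-0.55), SMYD5 (-0.33), the JmjC protein PHF2 (-0.32) and SMYD3 (-0.32) fell, and the lysine methyltransferase SMYD2 (0.66) rose. Of 25 PRC1 subunits and methyl-lysine readers measured (29 listed), 3 rose and 12 fell (60.0%, median -0.11). PHC2, a Polyhomeotic subunit of PRC1, was 2.27-fold higher at 1.18 ± 0.034 (limma, adjusted p = 8.23e-07), with 3 probe sets from 1.04 to 1.28, while PHC3 (-0.21) fell. CBX5, the heterochromatin protein that reads H3K9 methylation, fell by 0.53 (adjusted p = 1.44e-05) with its 7 probe sets between -0.80 and -0.32, and ING2 (-0.46), L3MBTL2 (-0.39) and PHF6 (-0.20) also fell. Of 17 arginine and DNA methylation enzymes, 6 rose and 5 fell (64.7%, median -0.021), among them the arginine methyltransferases PRMT7 (0.42), PRMT3 (0.39) and CARM1 (0.27) higher, and PRMT6 (-0.43), PRMT2 (-0.18) and the 5-methylcytosine dioxygenase TET3 (-0.36) lower. Of 12 measured genes (16 listed) that supply or recycle cofactors, 4 rose and 4 fell (66.7%, median 0.025). IDH1, which makes the 2-oxoglutarate that JmjC enzymes need, rose by 0.55 (adjusted p = 1.82e-04), AHCY, which clears S-adenosylhomocysteine, by 0.33 (adjusted p = 1.05e-04) and MAT2A, which makes S-adenosylmethionine, by 0.20 (adjusted p = 0.0014), though the 6 probe sets of MAT2A ran from -0.14 to 1.25. AHCYL1 (0.17) rose and IDH3A (-0.25) and MAT2B (-0.17) fell.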

How the data were processed

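RNA of 6 samples was labelled with biotin and hybridised to Affymetrix arrays, 1 per sample, and samples were grouped by their titles. The deposited values were log2 expression values, and RMA is the one tool that the submitters' processing notes name; which program ran it, and with which chip description, is not stated there. Each probe set was further centred, since its median over the arrays was 0 to within 5e-07. Array medians lay between -0.015 and 0.010, and the number of arrays limits the precision.

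Gene symbols came from GEO's annotation of the platform: 44994 of 49395 had 1 symbol, 1832 had several and were not used, and 2569 had none. Entrez identifiers changed 0 symbols. A gene's value is the mean of its probe sets, among them 190 of the 54 members. The comparison used limma 3.58.1 (lmFit, then eBayes) under R 4.3.3, with p adjusted by Benjamini-Hochberg over 18132 genes, or over 49293 probe sets without the 102 controls, at 0.05. Simulated data for 18132 genes held 50 changed genes at each of 0.25, 0.5, 1 and 2 on the log2 scale. The same fit called 56% of those at 0.25 and 100% at 0.5. In the deposited data 44.9% of genes passed, which makes the adjustment milder, so the 56% does not give the sensitivity there.

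Level classes (2 to 4, 4 to 8, 8 to 16) were read from the rounding step of single-precision numbers. In simulation 98.4% to 98.6% of probe sets were placed rightly. The simulated levels lay away from the class limits and had no difference between labels, so the accuracy near a limit was not tested. Of 17 control tags, 16 fell in 2 to 4. In all, 771 deposited probe sets came out at 16 or more, which RMA does not reach, so this class is shown together with 8 to 16. No filter on low values was applied.

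Members, lists and tests were chosen with earlier results of these data known. Every member was to be named or counted, with up to 6 genes of each other list by smallest p; other genes, the pairs and the members whose values are given per array were chosen after values were seen. Alternatives were 3 scalings, 4 rules on probe sets, robust eBayes, a replicate block and leaving out each array.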

Additional observations from a re-analysis of the deposited data

How the results depend on the processing

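The counts of members that passed, higher and lower, stayed within 1.5 times of 15 and 21 under the 15 alternatives, as did the count of member probe sets, 102, under the 13 alternatives that apply to probe sets. Members called higher ranged from 10 to 16 and lower from 18 to 24. SINHCAF kept its direction and call throughout, at 1.12 to 1.31. The median log2 difference of the members, -0.056, moved by more than its spread between arrays but kept its sign: it was -0.038 after another quantile normalization, -0.031 after cyclic loess, -0.043 with arrays centred, -0.152 with the probe set of largest variance, -0.049 with the median of the probe sets, -0.069 without x_at and s_at probe sets, -0.069 without the lowest level class, and -0.059 to -0.038 with 1 array left out. The list of arginine and DNA methylation enzymes had 7 genes that passed without x_at and s_at probe sets, against 11, with 15 of its 17 genes left.

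Sign changes were seen in 2 members that passed. KDM3A went to -0.007 with the median of the probe sets and -0.142 without the lowest level class, and SUV39H2 to -0.342 without that class, where the left-out probe sets carried the rise. The other members with a sign change had not passed as reported, and the cause was not tested. DOT1L had 0.016, 0.023 and 0.009, and KDM3B 0.013, 0.021 and 0.007, under the quantile, loess and centred scalings. With the probe set of largest variance KMT2B had -0.025 and SETD2 -0.070, with the median NSD3 had -0.056, without x_at and s_at probe sets SETD2 had -0.003, and without the lowest level class EZH2 had 0.002. With 1 array left out, values ran from -0.015 to 0.007 for DOT1L, -0.021 to 0.036 for NSD3, -0.026 to 0.004 for KDM3B, -0.049 to 0.038 for KMT2B, -0.026 to 0.049 for SETD2, -0.003 to 0.068 for SETD9 and -0.006 to 0.048 for SETD1A.

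Replicate numbers are shared by the labels, but deviations of same-numbered arrays correlated over genes at 0.161, 0.059 and 0.078, so the numbers were not taken to pair them; every array correlated best with its own number, a hint from the data. With the replicate block, 12 members were higher and 22 lower, EED, KDM3A, KMT5B and KMT5C lost their call and KDM4E and KDM8 gained one. Background correction and a filter by mean level were not run, since centred values do not allow them. In values near background a fall can be hidden or look smaller.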
